A study of Mus musculus with 4 samples.

Results

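The comparison described here sets cells that carried a hairpin against Jaml and were exposed to high glucose (sh-JAML/HG) against cells that carried the control hairpin and received no added glucose (sh-NC). Its members are the 14187 genes, of 56393 in the deposited table, with a mean estimated count of at least 50 over the 4 libraries of the series. Both groups came from MPC, a conditionally immortalised mouse podocyte line. The labels describe growth at 33 °C in 10% serum with 20 U/ml interferon-gamma, followed by differentiation for 7 days at 37 °C after interferon-gamma was withdrawn, and every library shares this history. In the sh-JAML/HG culture D-glucose was brought to 40 mmol/L, for 24 h according to the design text, and the labels name no osmotic control. The other 2 libraries, with the Jaml hairpin and no added glucose (sh-JAML) and with the control hairpin and high glucose (sh-NC/HG), are set beside the pair. The design text speaks of 4 treated and 4 untreated samples, and 4 libraries, 1 per group, were analysed here. With 1 library per group no ratio has a replicate check and no test was made. The hairpin and the glucose both differ within the pair, so their parts in any ratio cannot be told apart from these 2 libraries.

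Podocytes are the epithelial cells whose interlocking foot processes cover the glomerular capillaries and, joined by the slit diaphragm, retain plasma protein in the blood. Jaml encodes a junction adhesion molecule-like protein of the cell surface, best known in leukocytes, which binds the coxsackievirus and adenovirus receptor encoded by Cxadr. High glucose in culture is widely used as a model of diabetic exposure, and it also raises the osmolarity of the medium. The title of the series places Jaml in podocyte lipid metabolism in diabetic kidney disease.

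The libraries held 83551812 estimated counts in sh-JAML/HG, 79330461 in sh-JAML, 94341975 in sh-NC/HG and 80599238 in sh-NC. Levels are given as CPM, the usual library-size scale for counts, after TMM scaling between libraries. A ratio is sh-JAML/HG to sh-NC unless stated. About 4 units of the table stood for 1 sequenced fragment, so the exact 95% intervals beside ratios were computed on counts divided by 4. They cover counting error only. A count under 3 fragments, or 12 units, corresponds to at most 0.142 CPM in sh-JAML/HG and 0.151 CPM in sh-NC, and ratios to a library at 0 are given as lower bounds against that floor.

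The transcriptomes of the pair were close. The log2 ratio had a median of -0.0037 and quartiles of -0.14 and 0.13, with 49.2% of genes above 0 and 50.8% below. At least 2-fold higher in sh-JAML/HG were 213 genes (1.5% of those measured), and 231 (1.63%) were at least 2-fold lower, 3.13% in all. Genes at 0 in a library entered all such counts by a log2 ratio with a prior count of 1, whatever their lower bound. At 1.5-fold the numbers were 584 higher (4.12%) and 644 lower (4.54%), 8.66% in all. Of the 2214 genes with a mean count of 50 to 200, 12.3% were at least 2-fold apart, against 0.568% of the 4578 genes at 5000 and over. Most of the genes 2-fold apart were thinly counted ones. Exon bases shared with another gene, where reads can be assigned to either, reached 10% in 36.2% of the higher genes and 28.6% of the lower ones, against 17.2% of all genes measured. Protein-coding genes made up 62.4% of the higher set and 79.7% of the lower set, beside 85.1% overall. For comparison, sh-JAML against sh-NC had 186 genes past 2-fold on the high side (1.31%) and 198 on the low side (1.4%), 2.71% in all. The ratio of sh-JAML/HG to sh-JAML had 186 on the high side (1.31%) and 222 on the low side (1.56%), 2.88% in all. These 3 comparisons share libraries, so their counts are not independent of each other.

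**Figure D1:**
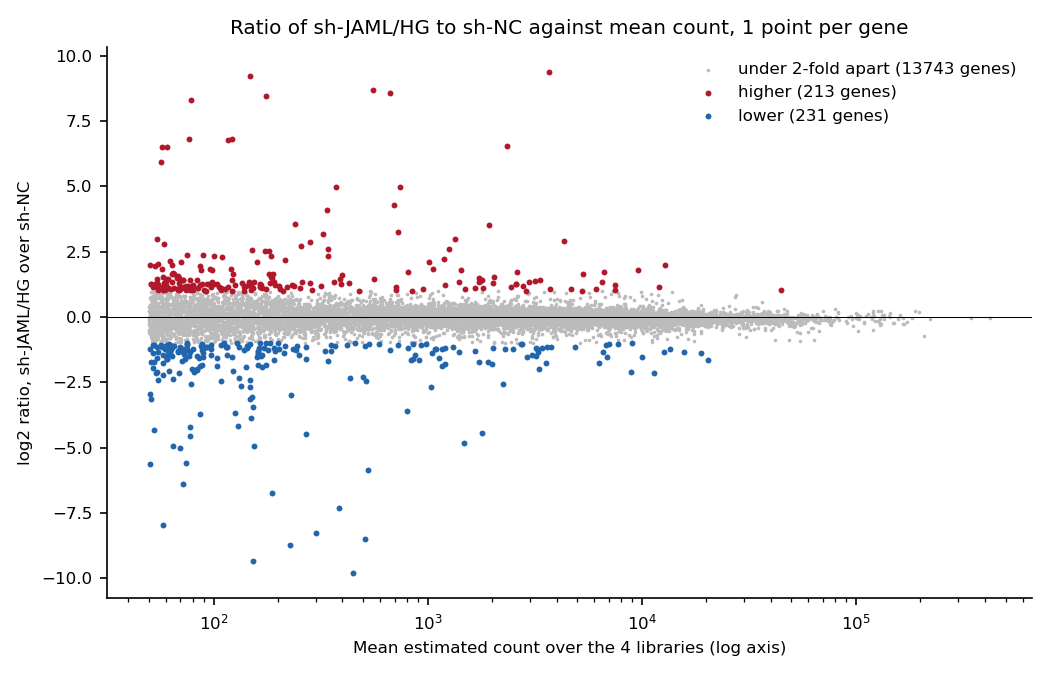
Each point is 1 gene, with its mean estimated count over the 4 libraries on a log x axis and the log2 ratio of sh-JAML/HG to sh-NC on the y axis. The 213 genes at least 2-fold higher (red) and the 231 at least 2-fold lower (blue) lie mostly at the left, where counts are low.

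**Figure D2:**
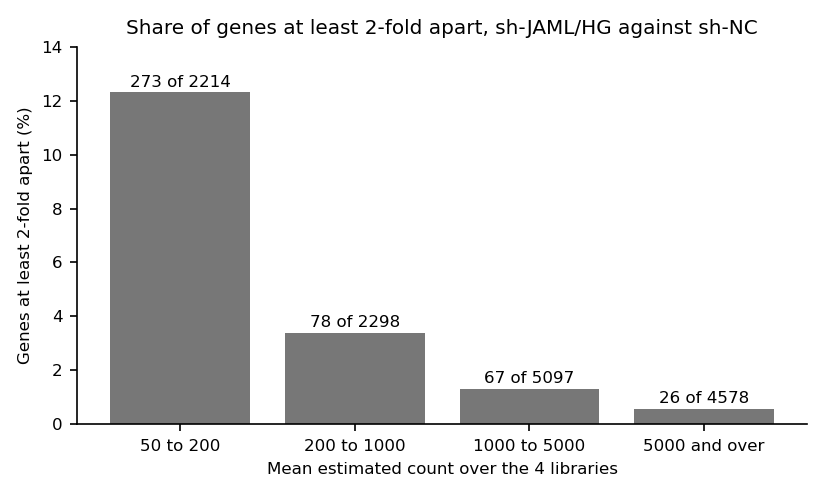
Bars give the percentage of genes at least 2-fold apart between sh-JAML/HG and sh-NC in 4 ranges of mean estimated count, with the number of genes above each bar. The share is 12.3% for means of 50 to 200 and 0.568% for means of 5000 and over.

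Jaml itself (ENSMUSG00000048534, chr9:45079183-45108534, mm10, plus strand) had a count of 0 in sh-JAML/HG, in sh-JAML, in sh-NC/HG and in sh-NC. A count of 0 allows up to 0.142 CPM in sh-JAML/HG and 0.151 CPM in sh-NC, so the knockdown could not be checked at this depth. The partner receptor Cxadr was at 381 CPM in sh-JAML/HG, 374 in sh-JAML, 522 in sh-NC/HG and 419 in sh-NC, 1.10-fold lower in sh-JAML/HG than in sh-NC (1.07 to 1.14). Of 16 measured genes of junction adhesion molecules, nectins and cadherins, 15 lay on the low side of 0, the median log2 ratio was -0.14 and none was at least 2-fold apart. The farthest was Cdh11, encoding a mesenchymal cadherin, at 74.5 CPM in sh-JAML/HG, 74.6 in sh-JAML, 63.8 in sh-NC/HG and 115 in sh-NC.

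The podocyte label was checked against defining genes. The slit diaphragm genes were at the edge of detection. Nphs1, which encodes nephrin, had counts of 17 in sh-JAML/HG, 18 in sh-JAML, 18 in sh-NC/HG and 35 in sh-NC. Ptpro, a receptor phosphatase of foot processes, was at 0 in both sh-JAML/HG and sh-NC. Wt1, a transcription factor of podocytes, was at 0.957 CPM in sh-JAML/HG and 1.17 CPM in sh-NC. By contrast Synpo, which encodes the actin-associated synaptopodin, was at 180 CPM in sh-JAML/HG, 172 in sh-JAML, 246 in sh-NC/HG and 218 in sh-NC. The summed level of 11 podocyte markers was 2503 CPM in sh-JAML/HG and 2798 CPM in sh-NC, most of it from Vim, Actn4 and Nes, which other cell types also use. Genes that mark tubule cells were present as well. Their sum was 851 CPM in sh-JAML/HG, 1077 in sh-JAML, 1334 in sh-NC/HG and 1053 in sh-NC, and came from Cdh16, Lrp2 and Pax8, while Umod and Slc34a1 were at 0 throughout. Endothelial markers summed to 1.05 CPM in sh-JAML/HG and 1.27 CPM in sh-NC. These are bulk libraries, in which fewer cells of a type and less RNA per cell cannot be told apart.

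Among genes of the podocyte and slit diaphragm list, 22 of 29 measured had a ratio below 0 and the median was -0.20. None was at least 2-fold higher and 2 were at least 2-fold lower. Kirrel3, a relative of nephrin, was at 2.49 CPM in sh-JAML/HG, 3.86 in sh-JAML, 1.254 in sh-NC/HG and 5.56 in sh-NC, 2.23-fold lower (1.58 to 3.12). Plce1, the phospholipase C epsilon gene mutated in an early-onset nephrotic syndrome, was at 23.1 CPM in sh-JAML/HG, 36.9 in sh-JAML, 24.9 in sh-NC/HG and 47.5 in sh-NC, 2.05-fold lower (1.84 to 2.29). In both genes sh-NC was the highest of the 4 libraries, and in Kirrel3 sh-NC/HG was the lowest. Foxc2, a podocyte transcription factor, had 66 counts in sh-JAML/HG and 120 in sh-NC, with an interval of 1.05- to 3.92-fold lower.

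The lowest ratios, taken among genes that averaged at least 200 counts across the 4 libraries, with under 10% of exon bases shared, began with the adult globins, which encode the chains of haemoglobin. Hbb-bs had counts of 0 in sh-JAML/HG, 947 in sh-JAML, 3 in sh-NC/HG and 842 in sh-NC, which makes it at least 74.6-fold lower in sh-JAML/HG than in sh-NC. Hbb-bt had counts of 0 in sh-JAML/HG, 511 in sh-JAML, 0 in sh-NC/HG and 396 in sh-NC, at least 35.1-fold lower. Hba-a1 had counts of 17 in sh-JAML/HG, 1075 in sh-JAML, 28 in sh-NC/HG and 979 in sh-NC, 61.2-fold lower (25.1 to 241). Hba-a2 had 4 units, about 1 fragment, in sh-JAML/HG, 780 in sh-JAML, 13 in sh-NC/HG and 744 in sh-NC, 198-fold lower (35.1 to 7855). The 4 globin genes were thus high in the 2 libraries without added glucose and at or near 0 in the 2 with it. Alas2, which encodes the erythroid enzyme that starts haem synthesis, had 34 counts in sh-JAML/HG, 60 in sh-JAML, 17 in sh-NC/HG and 24 in sh-NC, so this red cell gene did not share the pattern of the globins. The sum of 5 red cell genes was 0.650 CPM in sh-JAML/HG, 42.0 in sh-JAML, 0.654 in sh-NC/HG and 37.5 in sh-NC. Whether red cell RNA from outside the culture entered some libraries was not tested.

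The other low ratios differed in which of the remaining libraries were low as well. Mob1a, which encodes a co-activator of the LATS kinases in the Hippo pathway, was at 40.4 CPM in sh-JAML/HG, 175 in sh-JAML, 147 in sh-NC/HG and 178 in sh-NC, 4.42-fold lower (4.10 to 4.77). Pheta1, encoding a protein of endosomal trafficking, was at 3.51 CPM in sh-JAML/HG, 21.6 in sh-JAML, 3.84 in sh-NC/HG and 22.2 in sh-NC, 6.33-fold lower (4.96 to 8.24). Xkr6, of the XK-related family, was at 1.41 CPM in sh-JAML/HG, 6.11 in sh-JAML, 8.88 in sh-NC/HG and 7.73 in sh-NC. In these 3 genes sh-JAML stood near sh-NC. Mob1a and Xkr6 were low in sh-JAML/HG alone, while Pheta1 was as low in sh-NC/HG. Lrrc8d, which encodes a subunit of the volume-regulated anion channel, was at 12.4 CPM in sh-JAML/HG, 11.9 in sh-JAML, 11.9 in sh-NC/HG and 73.9 in sh-NC, 5.96-fold lower (5.22 to 6.83). Fam107b was at 40.6 CPM in sh-JAML/HG, 38.3 in sh-JAML, 165 in sh-NC/HG and 174 in sh-NC, 4.28-fold lower (3.97 to 4.62). Zfp46, a zinc-finger gene, was at 2.44 CPM in sh-JAML/HG, 3.64 in sh-JAML, 3.85 in sh-NC/HG and 29.4 in sh-NC, 12.1-fold lower (9.0 to 16.2). Lrrc8d and Zfp46 were low in all libraries but sh-NC, and Fam107b in the 2 with the Jaml hairpin. Cldn19, which encodes a tight junction claudin of the thick ascending limb, had 19 counts in sh-JAML/HG, 141 in sh-JAML, 607 in sh-NC/HG and 149 in sh-NC, 8.34-fold lower (3.09 to 25.7). The chemokine gene Cxcl5 completed the 12, with 0 counts in sh-JAML/HG, 9 in sh-JAML, 1053 in sh-NC/HG and 20 in sh-NC. Against the floor it was at least 1.77-fold lower in sh-JAML/HG than in sh-NC. Cldn19 and Cxcl5 reached the minimum of 200 only through sh-NC/HG, and their mean counts over the other 3 libraries were 103 and 9.67.

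The highest ratios held genes that were high in sh-JAML/HG alone and genes that were high in other libraries too. Bola1, which encodes a mitochondrial protein of iron-sulfur cluster assembly, was at 27.0 CPM in sh-JAML/HG, 2.60 in sh-JAML, 1.94 in sh-NC/HG and 1.37 in sh-NC, 19.7-fold higher (13.5 to 30.5). Ppp1r26, a regulatory subunit gene of protein phosphatase 1, was at 26.2 CPM in sh-JAML/HG, 2.52 in sh-JAML, 3.01 in sh-NC/HG and 2.70 in sh-NC, 9.68-fold higher (7.29 to 13.0). Tmem170b was at 23.4 CPM in sh-JAML/HG, 3.86 in sh-JAML, 30.5 in sh-NC/HG and 2.97 in sh-NC, 7.88-fold higher (6.01 to 10.5). Arl5b, which encodes a small GTPase of the trans-Golgi network, was at 36.3 CPM in sh-JAML/HG, 4.77 in sh-JAML, 11.7 in sh-NC/HG and 5.88 in sh-NC. Xpnpep3, a mitochondrial aminopeptidase gene, was at 47.3 CPM in sh-JAML/HG, 12.5 in sh-JAML, 45.5 in sh-NC/HG and 14.4 in sh-NC. The unnamed locus 2610001J05Rik was at 28.7 CPM in sh-JAML/HG, 9.77 in sh-JAML, 20.1 in sh-NC/HG and 8.31 in sh-NC. In these 6 genes sh-JAML was close to sh-NC, except that Bola1 was 1.90-fold higher in sh-JAML than in sh-NC (1.18 to 3.16). Bola1 and Ppp1r26 were high in sh-JAML/HG alone and Arl5b was highest there, while Tmem170b, Xpnpep3 and 2610001J05Rik were high in sh-NC/HG as well.

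In the remaining high ratios sh-JAML stood high with sh-JAML/HG, and in all of them but Emp1 so did sh-NC/HG. Sesn3, which encodes a sestrin, an inhibitor of mTORC1 signalling, was at 166 CPM in sh-JAML/HG, 186 in sh-JAML, 203 in sh-NC/HG and 41.7 in sh-NC, 3.98-fold higher in sh-JAML/HG than in sh-NC (3.69 to 4.29). Nek7, a kinase gene of mitosis and of the NLRP3 inflammasome, was at 147 CPM in sh-JAML/HG, 149 in sh-JAML, 113 in sh-NC/HG and 42.0 in sh-NC, 3.50-fold higher (3.25 to 3.79). Emp1, encoding a tetraspan epithelial membrane protein, was at 125 CPM in sh-JAML/HG, 112 in sh-JAML, 41.9 in sh-NC/HG and 38.0 in sh-NC, 3.29-fold higher (3.03 to 3.57). Gm43951 was at 18.6 CPM in sh-JAML/HG, 17.8 in sh-JAML, 15.7 in sh-NC/HG and 4.01 in sh-NC, 4.64-fold higher. Gm49599 and the long non-coding RNA Gm26797 were nearly missing from sh-NC. Gm49599, which lies within the span of Golgb1 on the same strand, had 776 counts in sh-JAML/HG, 595 in sh-JAML, 1290 in sh-NC/HG and 1 in sh-NC, at least 60.8-fold higher. Golgb1 itself had a log2 ratio of -0.05. Gm26797 had 209 counts in sh-JAML/HG, 196 in sh-JAML, 539 in sh-NC/HG and 16 in sh-NC, with an interval of 4.5- to 46.5-fold higher, and a mean count of 140.3 without sh-NC/HG, below the minimum of 200. Of 24 measured genes within 10000 bases of these 24 extreme genes, none was at least 2-fold apart, beside 3.13% of all genes measured. With so few neighbours that count does not set them apart from other genes. The log2 ratios of the neighbours ranged from -0.76 to 0.64. For 9 of the extreme genes no neighbour had more than 12 counts in sh-JAML/HG or sh-NC. The distance also fell short between Hbb-bs and Hbb-bt and between Hba-a1 and Hba-a2, which share a chromosome and were low together.

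**Figure D3:**
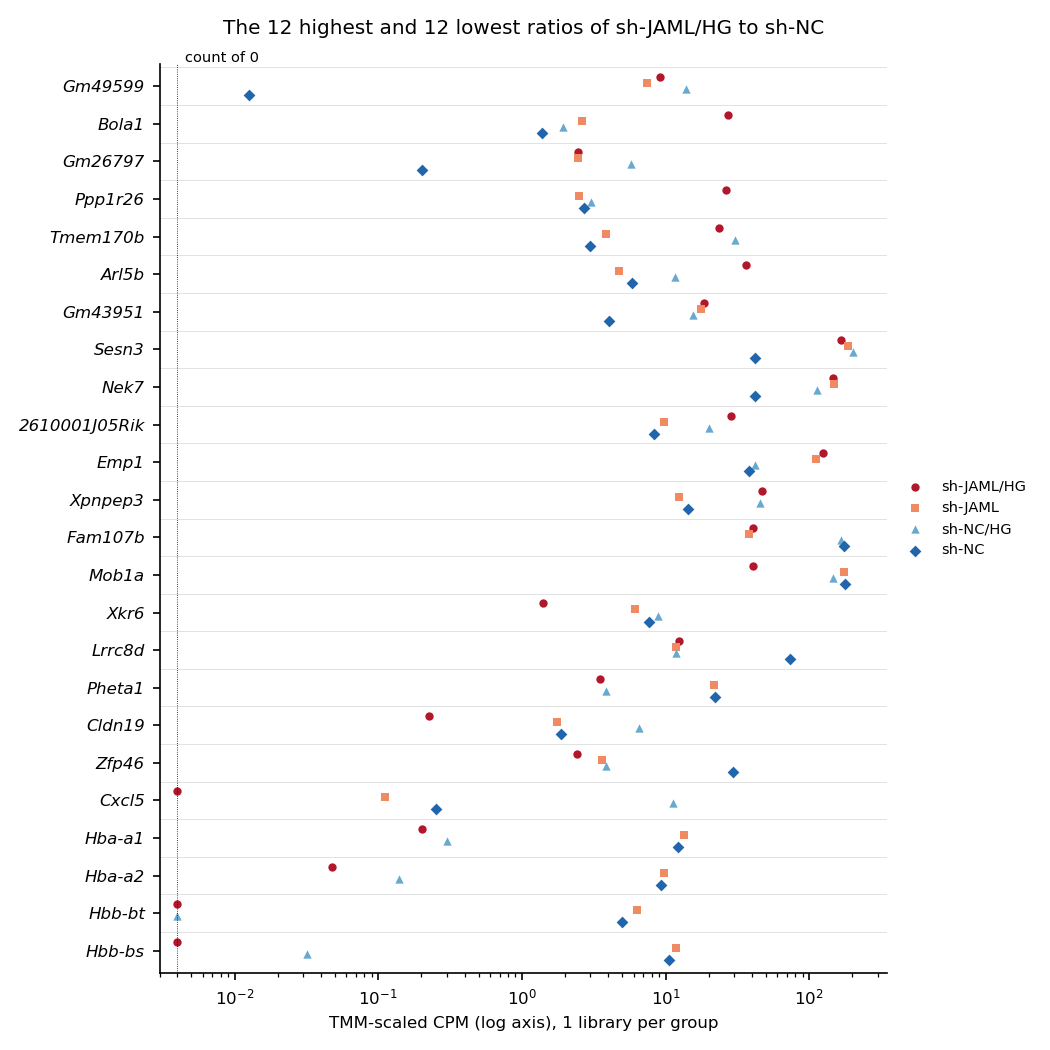
Each row is 1 of the 12 genes with the highest and the 12 with the lowest ratio of sh-JAML/HG to sh-NC (mean count of at least 200, under 10% of exon bases shared), and points give TMM-scaled CPM on a log axis in 1 library each of sh-JAML/HG, sh-JAML, sh-NC/HG and sh-NC. For Bola1 sh-JAML/HG stands apart, for Sesn3 sh-NC stands apart, and the globins at the bottom are at or near 0 in sh-JAML/HG and sh-NC/HG.

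Lists of related genes covered 1151 of the measured genes. Past 2-fold they had 11 genes on the high side (0.956%) and 43 on the low side (3.74%), beside 1.5% and 1.63% of all genes measured. Of 51 lists, 32 had a median log2 ratio below 0 and 19 above it. The lists were chosen with earlier results of these libraries known, and 46 genes stood in more than 1 list. The largest departures among them were low medians in mesangial and fibroblast markers, replication-dependent histones, osmoadaptive genes and NF-kB cytokines and chemokines, and a high median in metallothioneins and metal transporters.

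**Figure D4:**
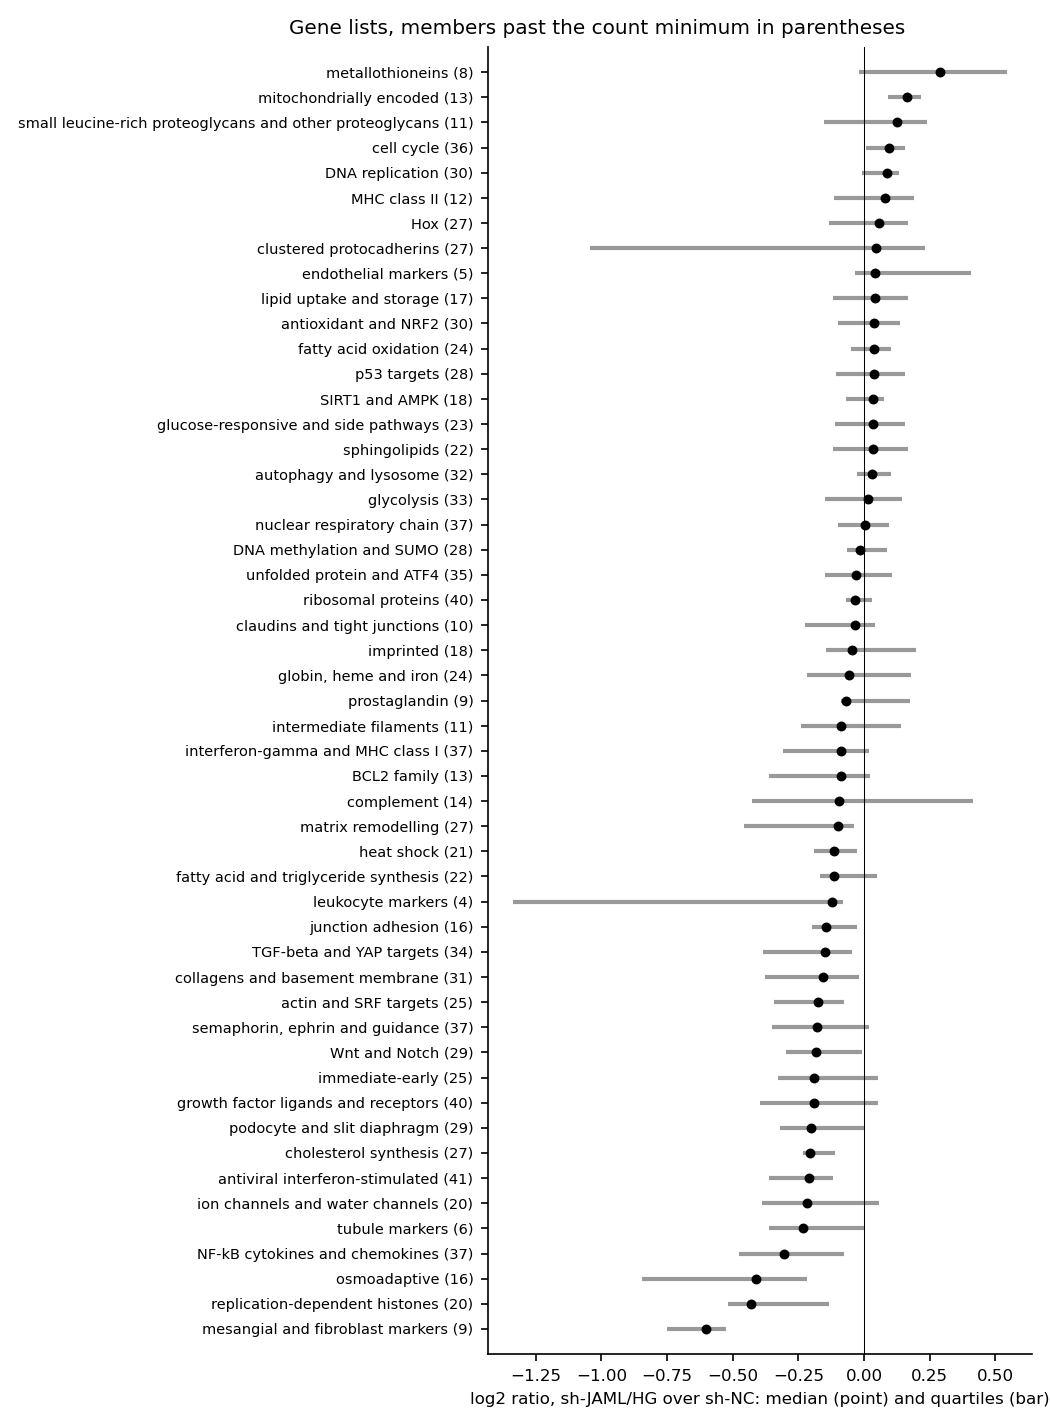
Rows are the 51 gene lists with the number of measured members, points give the median log2 ratio of sh-JAML/HG to sh-NC and bars span the quartiles. Most medians lie within 0.25 of 0 on the log2 scale, with mesangial and fibroblast markers lowest at -0.60 and metallothioneins highest at 0.29.

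Osmoadaptive genes serve cells in hypertonic medium, where the transcription factor NFAT5 drives uptake and synthesis of compatible solutes and the chaperones that protect protein. Of 16 measured, 15 lay below 0, 2 were at least 2-fold lower, none was 2-fold higher, and the median was -0.41. The same genes had a median of -0.05 for sh-JAML to sh-NC and of -0.34 for sh-JAML/HG to sh-JAML. Aqp1, which encodes a water channel, was at 94.9 CPM in sh-JAML/HG, 280 in sh-JAML, 294 in sh-NC/HG and 292 in sh-NC, 3.08-fold lower (2.93 to 3.24). Slc5a3, the sodium and myo-inositol cotransporter gene, was at 22.1 CPM in sh-JAML/HG, 42.0 in sh-JAML, 22.0 in sh-NC/HG and 44.8 in sh-NC, 2.03-fold lower (1.81 to 2.27). Akr1b3, which encodes the aldose reductase that makes sorbitol from glucose, was at 91.9 CPM in sh-JAML/HG, 166 in sh-JAML, 197 in sh-NC/HG and 163 in sh-NC, 1.77-fold lower (1.68 to 1.88). In all 3 genes sh-JAML and sh-NC stood together and sh-JAML/HG below them. Slc5a3 was as low in sh-NC/HG, while Aqp1 and Akr1b3 were not.

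The inducible HSP70 genes Hspa1a and Hspa1b, also counted among the osmoadaptive genes, lie beside each other on chromosome 17. Hspa1b was at 17.3 CPM in sh-JAML/HG, 39.4 in sh-JAML, 17.1 in sh-NC/HG and 33.8 in sh-NC, 1.96-fold lower (1.72 to 2.23). Hspa1a was at 3.50 CPM in sh-JAML/HG, 7.00 in sh-JAML, 3.58 in sh-NC/HG and 6.56 in sh-NC, 1.88-fold lower (1.39 to 2.52). Both were low in the 2 libraries with added glucose, sh-JAML/HG and sh-NC/HG. Their promoters are shown because the genes moved together and are near copies, so that reads can be assigned to either. The 250 bases before each start site (RefSeq, GRCm38.p6, minus strand, 5′ to 3′, both genes matched) were identical at 247 of 250 bases. Capitals mark the only match in each window to GAANNTTC or TTCNNGAA, a facing pair of the core unit bound by heat shock factor, searched on both strands, which 12.8% of 32851 RefSeq mouse promoter windows of this length hold at least once. The windows are chr17:34972157-34972406 for Hspa1a and chr17:34959239-34959488 for Hspa1b.
Hspa1a: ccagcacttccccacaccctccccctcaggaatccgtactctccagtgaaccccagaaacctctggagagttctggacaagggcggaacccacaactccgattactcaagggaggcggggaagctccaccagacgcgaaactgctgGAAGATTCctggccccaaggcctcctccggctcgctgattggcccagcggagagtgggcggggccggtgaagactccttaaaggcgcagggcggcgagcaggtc
Hspa1b: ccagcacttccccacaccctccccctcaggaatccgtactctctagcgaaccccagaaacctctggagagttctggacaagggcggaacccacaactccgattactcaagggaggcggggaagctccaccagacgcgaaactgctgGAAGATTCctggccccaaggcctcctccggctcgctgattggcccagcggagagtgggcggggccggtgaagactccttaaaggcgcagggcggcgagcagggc
A match is a description of the letters and not a measured binding site. Of 21 heat shock genes 16 lay below 0, with a median of -0.11, and none was at least 2-fold apart. Hspa5, which encodes the chaperone BiP of the endoplasmic reticulum, was at 384 CPM in sh-JAML/HG, 366 in sh-JAML, 523 in sh-NC/HG and 707 in sh-NC, 1.84-fold lower (1.79 to 1.89). The 35 genes of the unfolded protein and ATF4 list as a whole had a median of -0.03.

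Metallothioneins are small cysteine-rich proteins that bind zinc and copper, and metal-responsive transcription factor 1 (Mtf1) drives them. Mt1 was at 909 CPM in sh-JAML/HG, 698 in sh-JAML, 119 in sh-NC/HG and 438 in sh-NC, 2.07-fold higher (2.02 to 2.13). Mt2 was at 241 CPM in sh-JAML/HG, 193 in sh-JAML, 41.1 in sh-NC/HG and 109 in sh-NC, 2.21-fold higher (2.10 to 2.32), and 73.5% of its exon bases are shared with another gene. Both were highest in sh-JAML/HG, followed by sh-JAML and sh-NC, and lowest in sh-NC/HG. The list of 8 measured genes of metallothioneins and metal transport had a median of 0.29, with 2 at least 2-fold higher, none at least 2-fold lower and 6 above 0. Its lowest member, the zinc importer gene Slc39a10, was at 30.7 CPM in sh-JAML/HG, 32.8 in sh-JAML, 72.0 in sh-NC/HG and 48.4 in sh-NC, 1.58-fold lower (1.43 to 1.75). The promoters of the pair that moved together are shown for the 250 bases before each start site (RefSeq, GRCm38.p6, plus strand, 5′ to 3′), at chr8:94178839-94179088 for Mt1 and chr8:94172368-94172617 for Mt2. Capitals mark matches on either strand to TGCACNC or TGCGCNC, the core of the metal response element.
Mt1: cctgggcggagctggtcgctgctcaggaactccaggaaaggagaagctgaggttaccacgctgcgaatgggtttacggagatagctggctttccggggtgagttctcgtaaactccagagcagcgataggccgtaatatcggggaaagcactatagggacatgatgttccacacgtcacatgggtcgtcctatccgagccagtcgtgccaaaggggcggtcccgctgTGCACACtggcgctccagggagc
Mt2: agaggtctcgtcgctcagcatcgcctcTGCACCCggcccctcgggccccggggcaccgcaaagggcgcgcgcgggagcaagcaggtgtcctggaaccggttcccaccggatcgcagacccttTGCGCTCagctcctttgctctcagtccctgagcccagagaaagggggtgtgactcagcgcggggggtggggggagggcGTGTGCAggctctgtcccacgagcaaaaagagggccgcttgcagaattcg
Mt1 holds 1 match and Mt2 holds 3, while 21.4% of the 32851 windows hold at least 1 and 1.26% at least 3. The search stopped at the RefSeq start site, so matches past it or beside another start site were not counted.

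**Figure D5:**
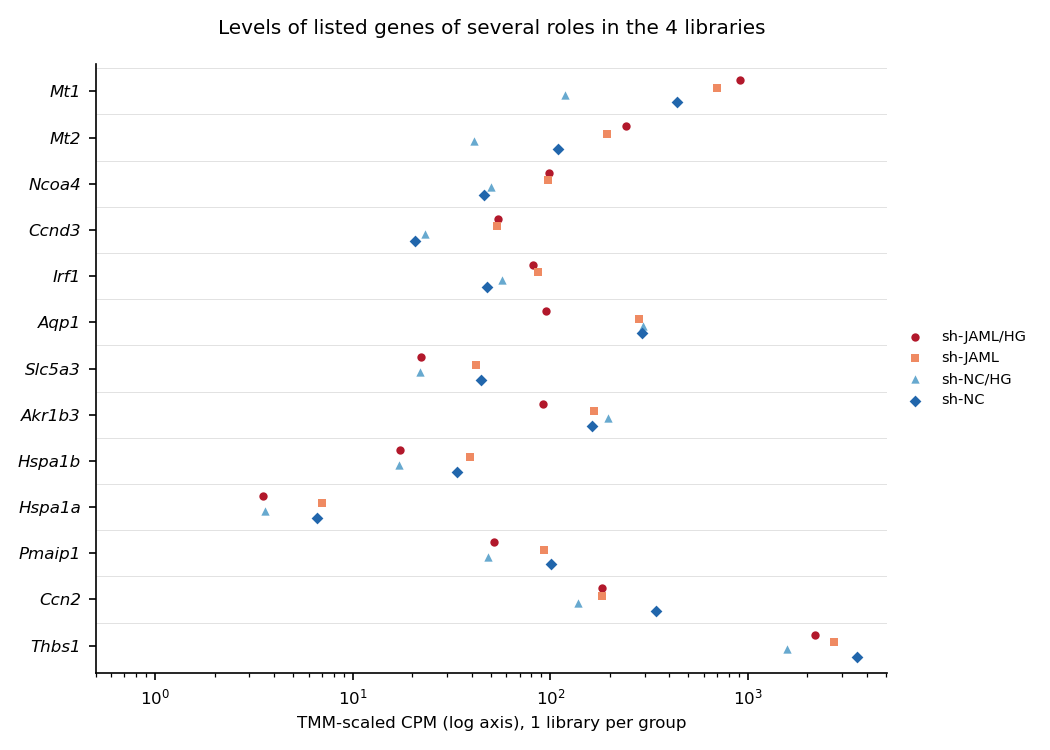
Points give TMM-scaled CPM on a log axis for 13 listed genes in 1 library each of sh-JAML/HG, sh-JAML, sh-NC/HG and sh-NC. For Slc5a3, Hspa1a and Hspa1b the 2 libraries with added glucose lie low, for Ncoa4, Ccnd3 and Irf1 the 2 with the Jaml hairpin lie high, and Aqp1 is low in sh-JAML/HG alone.

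Iron and haem genes other than the globins were close in the pair, with 1 exception. Ncoa4, which encodes the receptor that delivers ferritin to autophagy, was at 98.5 CPM in sh-JAML/HG, 97.0 in sh-JAML, 49.99 in sh-NC/HG and 46.2 in sh-NC, 2.13-fold higher (1.97 to 2.30). Both libraries with the Jaml hairpin stood above both with the control hairpin. Of 32 autophagy and lysosome genes 21 had a ratio above 0, the median was 0.03 and none was at least 2-fold apart. Sqstm1, the autophagy receptor p62, was at 507 CPM in sh-JAML/HG, 756 in sh-JAML, 512 in sh-NC/HG and 760 in sh-NC, 1.5-fold lower (1.46 to 1.54), with 17.3% of its exon bases shared.

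The lipid genes to which the series' title points differed little. Cholesterol synthesis genes leaned to the low side, with 22 of 27 below 0 and a median of -0.21, but none was 1.5-fold apart. Their median was -0.34 for sh-JAML to sh-NC and 0.16 for sh-JAML/HG to sh-JAML, so by these medians sh-JAML stood lowest of these 3 libraries. Srebf2, the sterol-regulated transcription factor, was at 507 CPM in sh-JAML/HG and 593 CPM in sh-NC. Of 22 measured genes of fatty acid and triglyceride synthesis 14 were below 0, with a median of -0.12. Srebf1, which drives fatty acid synthesis, was at 99.4 CPM in sh-JAML/HG, 97.9 in sh-JAML, 117 in sh-NC/HG and 91.4 in sh-NC, 1.09-fold higher (1.02 to 1.16). Its targets went slightly the other way, with Fasn at 544 CPM in sh-JAML/HG and 623 CPM in sh-NC, Acaca at 116 CPM in sh-JAML/HG and 128 CPM in sh-NC, and Scd1 1.27-fold lower (1.23 to 1.32). Sirt1, a deacetylase gene, was at 24.0 CPM in sh-JAML/HG, 20.4 in sh-JAML, 18.2 in sh-NC/HG and 23.01 in sh-NC, with an interval of 0.916 to 1.18 for the ratio of sh-JAML/HG to sh-NC. The member farthest from 0 was Lpin2, a phosphatidate phosphatase gene, at 21.2 CPM in sh-JAML/HG, 41.2 in sh-JAML, 41.7 in sh-NC/HG and 42.4 in sh-NC, 2.0-fold lower (1.78 to 2.25) and just short of the 2-fold limit. Medians were 0.04 for fatty acid oxidation (24 genes), 0.04 for lipid uptake and storage (17 genes), 0.03 for sphingolipids (22 genes) and 0.03 for SIRT1 and AMPK genes (18 genes), with none at least 2-fold apart in any of them.

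Glucose-handling genes were also close. The 33 glycolysis genes had a median of 0.01 and the 23 genes of glucose-responsive and side pathways a median of 0.03. Txnip, whose transcription follows glucose through MondoA, was at 196 CPM in sh-JAML/HG, 151 in sh-JAML, 278 in sh-NC/HG and 173 in sh-NC, 1.13-fold higher (1.08 to 1.18). Aldoc, an aldolase gene, had 82 counts in sh-JAML/HG and 28 in sh-NC, 2.75-fold higher (1.09 to 7.52), and Pfkfb4, which encodes an enzyme that sets fructose 2,6-bisphosphate, was 1.62-fold higher (1.26 to 2.09). Of the 13 mitochondrially encoded messengers 10 had a ratio above 0, with a median of 0.16, while 37 nuclear genes of the respiratory chain had a median of 0.00. The 40 ribosomal protein genes had a median of -0.03, and 30 antioxidant and NRF2 genes had a median of 0.04.

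Matrix and contractile genes leaned to the low side. Of 31 measured genes of collagens and basement membrane 25 lay below 0, with a median of -0.16 and 1 at least 2-fold lower. That gene, Col6a3, passed the count minimum only through its 316 counts in sh-NC/HG and had 20 in sh-JAML/HG and 58 in sh-NC. With the minimum set over the other 3 libraries 29 genes of the list were measured and none was at least 2-fold lower. Col8a1, encoding a short-chain collagen, was at 197 CPM in sh-JAML/HG, 201 in sh-JAML, 141 in sh-NC/HG and 306 in sh-NC, 1.56-fold lower (1.5 to 1.62). Of 34 targets of TGF-beta and YAP 29 were below 0, with a median of -0.15. Ccn2, the connective tissue growth factor gene, was at 182 CPM in sh-JAML/HG, 183 in sh-JAML, 138 in sh-NC/HG and 342 in sh-NC, 1.88-fold lower (1.8 to 1.95), with 23.2% of its exon bases shared. Thbs1, which encodes the matrix protein thrombospondin 1, was at 2181 CPM in sh-JAML/HG, 2714 in sh-JAML, 1574 in sh-NC/HG and 3576 in sh-NC, 1.64-fold lower (1.62 to 1.66). In Col8a1, Ccn2 and Thbs1 the other 3 libraries all stood below sh-NC, with sh-NC/HG lowest. Matrix remodelling genes had 21 of 27 below 0 and 2 at least 2-fold lower. One of these 2 was Adam12, a metalloprotease gene, at 1.22 CPM in sh-JAML/HG and 3.32 CPM in sh-NC. Mmp19, a matrix metalloproteinase gene, went the other way, at 7.00 CPM in sh-JAML/HG, 6.45 in sh-JAML, 13.7 in sh-NC/HG and 3.91 in sh-NC. The 11 proteoglycan genes had a median of 0.12, which is below 0 when genes of lower count are admitted. With the minimum set over the other 3 libraries 10 of them were measured, 5 above and 5 below 0, with a median of 0.004.

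Actin and SRF targets had 20 of 25 genes below 0, with a median of -0.17. Tagln, the smooth muscle protein transgelin, was at 565 CPM in sh-JAML/HG, 536 in sh-JAML, 628 in sh-NC/HG and 864 in sh-NC, 1.53-fold lower (1.49 to 1.57), and shares 67.9% of its exon bases. Cnn1, the calponin gene, had 86 counts in sh-JAML/HG and 181 in sh-NC, 2.24-fold lower (1.28 to 3.80). Of 9 measured mesangial and fibroblast markers 8 were below 0 and the median was -0.60, and 2 were at least 2-fold lower. S100a4, a fibroblast marker with 51.7% of its exon bases shared, was at 35.1 CPM in sh-JAML/HG, 58.0 in sh-JAML, 145 in sh-NC/HG and 74.6 in sh-NC. Des, which encodes desmin, had only 17 counts in sh-JAML/HG and 36 in sh-NC, and passed the minimum through its 216 counts in sh-NC/HG. With the minimum set over the other 3 libraries 7 markers were measured, 1 was at least 2-fold lower and the median was -0.60. The 8 genes fixed as the markers of this cell type summed to 1444 CPM in sh-JAML/HG, 1408 in sh-JAML, 1457 in sh-NC/HG and 2097 in sh-NC, mostly from Acta2 and Tagln, while Lum and Pdgfra were at 0 in both sh-JAML/HG and sh-NC. The part of a mesenchymal fraction of the culture in the matrix and contractile ratios was not tested. Among intermediate filament genes Krt5, a basal keratin, had 13 counts in sh-JAML/HG, 128 in sh-JAML, 35 in sh-NC/HG and 171 in sh-NC, and Synm, which encodes synemin, was 1.79-fold higher (1.52 to 2.12).

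Inflammatory genes were lower in sh-JAML/HG more often than higher. Of 37 measured NF-kB cytokines and chemokines 30 lay below 0, with a median of -0.31, 6 at least 2-fold lower and none at least 2-fold higher. Some members were at 0 in sh-JAML/HG and at trace levels in sh-NC. Saa3, an acute phase gene, had counts of 0 in sh-JAML/HG, 27 in sh-JAML, 479 in sh-NC/HG and 16 in sh-NC, and Nos2, the inducible nitric oxide synthase gene, had 0 in sh-JAML/HG, 5 in sh-JAML, 583 in sh-NC/HG and 5 in sh-NC, too few for a ratio. Lcn2, which encodes a neutrophil gelatinase-associated lipocalin, had 42 counts in sh-JAML/HG and 27 in sh-NC, with an interval of 0.462 to 4.16 for the ratio. These 3 genes and Cxcl5 passed the count minimum through sh-NC/HG. Against the floor Cxcl5 was at least 1.77-fold and Saa3 at least 1.42-fold lower, and Nos2 had no bound. Cxcl5, Saa3 and Nos2 are among the 6 by log2 ratios with a prior count of 1, so 2-fold is not assured for them. With the minimum set over the other 3 libraries 31 genes of the list were measured, with a median of -0.31 and 3 at least 2-fold lower. Leukocyte markers summed to 3.23 CPM in sh-JAML/HG, 5.62 in sh-JAML, 7.23 in sh-NC/HG and 5.81 in sh-NC. Lyz2, the lysozyme of macrophages, had 5 counts in sh-JAML/HG, 162 in sh-JAML, 282 in sh-NC/HG and 170 in sh-NC, 36.2-fold lower (7.59 to 1806), and Ptprc, the pan-leukocyte gene, had 0 in sh-JAML/HG and 25 in sh-NC. Cd68, another of these markers, was level in the pair, at 3.10 CPM in sh-JAML/HG and 3.12 CPM in sh-NC. It made up most of the sum in sh-JAML/HG. Whether leukocyte RNA contributed to the inflammatory ratios was not tested.

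Antiviral interferon-stimulated genes leaned the same way, with 37 of 41 below 0 and a median of -0.21, though none was at least 2-fold apart. The median was -0.05 for sh-JAML to sh-NC and -0.16 for sh-JAML/HG to sh-JAML. Ifi44 was at 52.0 CPM in sh-JAML/HG, 86.4 in sh-JAML, 183 in sh-NC/HG and 83.1 in sh-NC, 1.60-fold lower (1.48 to 1.73), and Mx1, a GTPase gene of influenza resistance, was 1.67-fold lower (1.23 to 2.29). Isg20, an exonuclease gene, stood on the other side, at 30.2 CPM in sh-JAML/HG, 32.9 in sh-JAML, 32.6 in sh-NC/HG and 19.3 in sh-NC. Over 37 genes of interferon-gamma response and MHC class I the median was -0.09. Within it Irf1, an early transcription factor of the interferon-gamma response, was at 82.0 CPM in sh-JAML/HG, 86.7 in sh-JAML, 57.1 in sh-NC/HG and 47.6 in sh-NC, 1.72-fold higher (1.59 to 1.87). The guanylate-binding protein gene Gbp2, a target of that response, was at 136 CPM in sh-JAML/HG, 155 in sh-JAML, 216 in sh-NC/HG and 212 in sh-NC, 1.56-fold lower (1.49 to 1.64). The interferon-inducible GTPase genes Tgtp1 and Tgtp2, close copies of each other, were each 1.53-fold lower. MHC class II genes had a median of 0.08 over 12 genes. Ciita, their master regulator, was at 4.23 CPM in sh-JAML/HG, 4.34 in sh-JAML, 0.300 in sh-NC/HG and 4.66 in sh-NC, and Cd74, the invariant chain gene, was at 84.8 CPM in sh-JAML/HG, 125 in sh-JAML, 94.5 in sh-NC/HG and 137 in sh-NC, 1.62-fold lower (1.53 to 1.72). Of the measured complement genes 7 were above and 7 below 0, with a median of -0.10. With the minimum set over the other 3 libraries 11 were measured, 4 above and 7 below 0, with a median of -0.30. The central component C3 was at 25.6 CPM in sh-JAML/HG, 27.7 in sh-JAML, 420.4 in sh-NC/HG and 41.2 in sh-NC.

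Proliferation genes lay slightly above 0. Of 36 cell cycle genes 29 had a ratio above 0, with a median of 0.09, and of 30 DNA replication genes 22 did, with a median of 0.09. The exception in size was Ccnd3, which encodes cyclin D3, at 54.6 CPM in sh-JAML/HG, 53.6 in sh-JAML, 23.1 in sh-NC/HG and 20.7 in sh-NC, 2.63-fold higher (2.35 to 2.95). Replication-dependent histones stood on the opposite side, with 16 of 20 below 0 and a median of -0.43, although most of these messengers lack a poly(A) tail and several were thinly counted. Hist1h3c had 29 counts in sh-JAML/HG, 71 in sh-JAML, 52 in sh-NC/HG and 124 in sh-NC, 4.55-fold lower (2.03 to 12.7). Hist2h2aa1 was at 20.8 CPM in sh-JAML/HG, 10.9 in sh-JAML, 2.85 in sh-NC/HG and 0.641 in sh-NC, but all of its exon bases are shared with another gene and its ratio is uncertain. The 28 p53 targets had a median of 0.04. Pmaip1, which encodes the pro-apoptotic protein NOXA, was at 51.9 CPM in sh-JAML/HG, 93.3 in sh-JAML, 48.6 in sh-NC/HG and 100.2 in sh-NC, 1.93-fold lower (1.79 to 2.08). Bcl2l2, a pro-survival member of the BCL2 family, was at 28.4 CPM in sh-JAML/HG, 38.0 in sh-JAML, 25.01 in sh-NC/HG and 64.1 in sh-NC, 2.26-fold lower (2.05 to 2.49). Bok, a pro-apoptotic member, was 1.53-fold lower (1.44 to 1.63). Immediate-early genes had 17 of 25 below 0 with a median of -0.19, among them Dusp1, a MAP kinase phosphatase gene, at 67.6 CPM in sh-JAML/HG, 95.1 in sh-JAML, 82.9 in sh-NC/HG and 125 in sh-NC.

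Signalling genes of several families leaned to the low side, with few past 2-fold. Growth factor ligands and receptors had 28 of 40 below 0, a median of -0.19 and 3 at least 2-fold lower. Igfbp2, which encodes a binding protein of insulin-like growth factors, was at 9.42 CPM in sh-JAML/HG, 9.81 in sh-JAML, 7.29 in sh-NC/HG and 28.0 in sh-NC, 2.98-fold lower (2.53 to 3.52). Angpt1, the ligand of the endothelial receptor TIE2, had 40 counts in sh-JAML/HG, 75 in sh-JAML, 114 in sh-NC/HG and 112 in sh-NC. Guidance genes had 26 of 37 below 0 with 1 at least 2-fold lower, the ephrin gene Efna1, at 30.5 CPM in sh-JAML/HG, 27.6 in sh-JAML, 23.3 in sh-NC/HG and 77.5 in sh-NC, 2.54-fold lower (2.31 to 2.79). Wnt and Notch genes had 22 of 29 below 0 and none at least 2-fold apart. Axin2, a feedback target of Wnt signalling, was 1.78-fold lower (1.31 to 2.43). Ion and water channels had 14 of 20 below 0 and 4 at least 2-fold lower. Kcnj16, an inward rectifier potassium channel gene, was at 23.7 CPM in sh-JAML/HG, 10.5 in sh-JAML, 44.8 in sh-NC/HG and 65.4 in sh-NC, so sh-JAML was the lowest of the 4. Kcnj2, of the same family, had 32 counts in sh-JAML/HG, 194 in sh-JAML, 40 in sh-NC/HG and 168 in sh-NC. The 9 prostaglandin genes had a median of -0.07 and none at least 2-fold apart, and the 10 claudin and tight junction genes had a median of -0.04.

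Genes of chromatin and of stable cell identity were mostly level, with single large ratios. Dnmt3a, a de novo DNA methyltransferase gene, was at 41.4 CPM in sh-JAML/HG, 40.0 in sh-JAML, 121 in sh-NC/HG and 121 in sh-NC, 2.91-fold lower (2.69 to 3.15). Sumo3, which encodes a small ubiquitin-like modifier, was at 110.2 CPM in sh-JAML/HG, 122 in sh-JAML, 35.7 in sh-NC/HG and 43.7 in sh-NC, 2.52-fold higher (2.33 to 2.73). In both genes the 2 libraries with the Jaml hairpin stood together and apart from the 2 with the control hairpin, and the other 26 of 28 genes of DNA methylation and SUMO were under 2-fold apart. Among 18 imprinted genes Usp29, expressed from the paternal copy, was at 2.0 CPM in sh-JAML/HG, 8.85 in sh-JAML, 0.686 in sh-NC/HG and 10.04 in sh-NC, 5.03-fold lower (3.62 to 7.24). Slc22a18, a transporter gene expressed from the maternal copy, had 118 counts in sh-JAML/HG, 78 in sh-JAML, 184 in sh-NC/HG and 21 in sh-NC. The 27 Hox genes, which record position along the body axis, had a median of 0.06 and 1 at least 2-fold lower.

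The clustered protocadherins, cell surface proteins of which single cells choose a few isoforms that descendants keep, had the widest ratios. Of 27 measured, 3 lay past 2-fold on the high side and 7 on the low side. Pcdhgb4 had 6316 counts in sh-JAML/HG, 6 in sh-JAML, 8488 in sh-NC/HG and 8 in sh-NC, 742-fold higher (205 to 6135). Pcdhb21 had 353 counts in sh-JAML/HG, 26 in sh-JAML, 327 in sh-NC/HG and 0 in sh-NC, at least 27.7-fold higher. On the other side Pcdhga6 had 5 counts in sh-JAML/HG, 2 in sh-JAML, 9 in sh-NC/HG and 2024 in sh-NC, 431-fold lower (96.1 to 21296), and Pcdhga11 had 3 in sh-JAML/HG, 41 in sh-JAML, 0 in sh-NC/HG and 1165 in sh-NC. Pcdhgb4 and Pcdhb21 were thus high in the 2 libraries with added glucose, and Pcdhga6 and Pcdhga11 in sh-NC alone. Gamma isoforms share their last exons, with 38.3% of exon bases shared for Pcdhgb4 and 44.8% for Pcdhga6, so part of each count is uncertain. Summed over the 43 genes of the cluster, the level was 296 CPM in sh-JAML/HG, 211 in sh-JAML, 321 in sh-NC/HG and 216 in sh-NC. Whether the cultures descended from different cells was not tested.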

How the data were processed

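Total RNA of 1 culture per group was sequenced after TruSeq RNA preparation, per the labels. Reads were processed with CASAVA 1.8 and TopHat2 2.0.6 on build mm10, per the submitters' processing notes. The authors deposited a table of estimated counts per Ensembl gene, with no scaling between libraries. The counting tool, its annotation and its use of strand were not given in the sources used here, so reads of overlapping or antisense genes cannot be separated. The control columns name no hairpin and were matched to sh-NC and sh-NC/HG by condition. One line without a gene was left out, and 27916 genes were 0 in all libraries. Low values piled up at multiples of 4, so 4 units were taken as 1 fragment.

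Symbols, positions and shared exon bases came from GENCODE M21 (GRCm38), which matched 55480 genes. Of 1439 listed gene names 4 matched no symbol. Counts were scaled with TMM factors of edgeR 4.0.16 (R 4.3.3), with a prior count of 1 in log2 ratios. Exact 95% intervals (Clopper-Pearson, given the sum of both counts) used scipy 1.17.1, and tables and figures used Python 3.11.15, numpy 2.4.6, pandas 2.3.3 and matplotlib 3.10.9. The calculations were tested on simulated data. No test between groups was made.

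Named genes were Jaml, the 12 highest and 12 lowest ratios at a mean count of at least 200 with under 10% of exon bases shared, the 3 members of a list farthest from 0 on either side, where at least 1.5-fold apart, a fixed group, and markers of cell types. Golgb1, a neighbour, was named after its value was seen. Some genes that the rule names are not reported here. The members, lists and this rule were chosen with earlier results of these data known, and the promoter motifs after the ratios were seen; the heat shock motif was relaxed after a stricter form found no match in the windows. Alternatives were DESeq2 1.42.0 size factors, library totals, TMM over the pair, other count minimums, a prior count of 5, genes with little exon sharing, another fold and the lower interval limit.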

Additional observations from a re-analysis of the deposited data

Results flagged for a closer look

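A few genes had a signal in the glucose-exposed control library (sh-NC/HG), which lies outside the comparison, well above their level in sh-NC. C3 was at 420 CPM in sh-NC/HG, 25.6 in sh-JAML/HG and 41.2 in sh-NC. Cxcl5 was at 11.3 CPM in sh-NC/HG, had no counts in sh-JAML/HG and was at 0.251 CPM in sh-NC. Lcn2 was at 11.7 CPM in sh-NC/HG, 0.496 in sh-JAML/HG and 0.339 in sh-NC. Nos2 was at 6.25 CPM in sh-NC/HG and 0.0629 in sh-NC, and Saa3 at 5.13 CPM in sh-NC/HG and 0.201 in sh-NC, both with no counts in sh-JAML/HG. Gm26797 was at 5.78 CPM in sh-NC/HG, 2.47 in sh-JAML/HG and 0.201 in sh-NC. The 5 immune genes were thus far higher in sh-NC/HG than in sh-JAML/HG, while Gm26797 stood above sh-NC in both. Each value is 1 library, and the differences were not tested.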

How the results depend on the processing

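The numbers of genes at least 2-fold higher and lower, 213 and 231, depended on the count minimum: they were 915 and 892 at a mean count of at least 10, 126 and 143 at 100, and 3396 and 3502 with no minimum. Requiring the lower limit of the exact interval to reach 2-fold left 67 and 82, and a 1.5-fold threshold gave 584 and 644. Among genes with under 10% of exon bases shared 136 were higher and 165 lower. With the minimum set over the 3 libraries other than sh-NC/HG the numbers were 204 and 210. By construction the count minimums and the limit on exon sharing test fewer or more genes. Scaling by library totals alone shifted the median of all genes by 0.037 on the log2 scale. Of the list medians recomputed under each alternative 446 stayed close, 10 moved and 3 were classed as reversed. The reversed medians were the proteoglycans, at -0.12 with a minimum of 10 and with none, and the tubule markers, at 0.31 with none (main value -0.23). Medians near 0 could change sign without being classed as reversed. Glycolysis did, at 0.01 in the main setting and -0.02 with the minimum over the 3 libraries other than sh-NC/HG. The cause of these changes was not tested. Of the ratios of single genes 1106 stayed close, 5 moved and none was classed as reversed. No paired analysis was possible because each group has 1 library, which also leaves no replicate to omit.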

Other observations

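The genes ranked 13 to 24 at either end, which were read after their values were seen, added several cases. Crk, which encodes a signalling adaptor, was at 44.7 CPM in sh-JAML/HG, 51.1 in sh-JAML, 55.8 in sh-NC/HG and 152 in sh-NC, 3.39-fold lower in sh-JAML/HG than in sh-NC (exact 95% interval 3.15 to 3.65). Gatad2b, a subunit gene of the NuRD chromatin complex, was at 42.8 CPM in sh-JAML/HG, 150.2 in sh-JAML, 156 in sh-NC/HG and 124 in sh-NC, 2.91-fold lower (2.69 to 3.14). Wars2, the mitochondrial tryptophanyl-tRNA synthetase gene, was at 5.15 CPM in sh-JAML/HG, 19.01 in sh-JAML, 12.9 in sh-NC/HG and 19.1 in sh-NC. P2ry2, a receptor gene for extracellular ATP and UTP, was at 5.91 CPM in sh-JAML/HG, 4.17 in sh-JAML, 11.1 in sh-NC/HG and 18.5 in sh-NC. On the high side Slc39a9, a zinc transporter gene, was at 71.4 CPM in sh-JAML/HG, 24.1 in sh-JAML, 34.6 in sh-NC/HG and 26.9 in sh-NC, 2.66-fold higher (2.41 to 2.94). Irak2, a kinase gene of interleukin-1 and Toll-like receptor signalling, was at 29.0 CPM in sh-JAML/HG, 27.0 in sh-JAML, 18.0 in sh-NC/HG and 10.99 in sh-NC, 2.64-fold higher (2.27 to 3.11). Crk was low in all libraries but sh-NC, Gatad2b was low in sh-JAML/HG alone, and Slc39a9 was highest in sh-JAML/HG. As values from 1 library each, these have no replicate check.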
